A study of Homo sapiens with 3 samples.

Results

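A set of 29 genes known to be switched on by the transcription factor p53, other than CDKN1A and the BCL2 family, was examined in LNCaP cells, an established human prostate carcinoma line derived from a lymph node metastasis. The genes were taken from a list by symbol, and each was read from the probe sets that the array annotation assigned to that gene alone. The list was chosen with earlier results of these data known, so shares set beside all genes are descriptions. Of the 29 genes, 26 had such a probe set, 1 each, among 18417 genes with one, and 25 passed the filter on dim genes and were tested among 12892 genes. BTG2, FDXR and TNFRSF10C had no probe set that named them alone and are not analysed here, and EDA2R lay below the filter. The study measured gene expression on Affymetrix arrays 72 hours after transfection, with 1 array for a negative control siRNA and 1 array for each of 2 siRNAs, siSE1 and siSE2, directed against the chimeric transcript SLC45A3-ELK4. All 3 arrays carried RNA of the same cell line grown in serum-containing medium and transfected with RNAiMAX. The array titled siSE2 names siSE1 in one label field, and its title was followed. If that field is right, both arrays carry siSE1. Separate cultures are not named in the labels, so p-values here measure only the spread between arrays, which may be technical. By title the 2 siRNA arrays carry different siRNAs and were fitted as replicates, so the spread may also hold differences between siRNAs. That spread is taken in large part from all genes tested together rather than from each gene alone.

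The transcription factor p53 is stabilised when cells meet DNA damage or other stress, and it then binds a response element made of a pair of similar half-sites in or near its target genes. Its targets arrest the cell cycle, repair DNA, adjust metabolism, prime cells for death and, through MDM2 and PPM1D, switch p53 off again. LNCaP cells are known to keep a functional p53. Many targets also answer to other stress regulators, so a change in a single target does not by itself report p53 activity.

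Sequences around start sites were searched for the p53 response element, and the stretches with a match are shown so that they can be set beside the values of their genes. RefSeq promoter windows (GRCh38.p14, 250 bases before a start to 50 after) were found for 23 of the 29 genes. TP53INP1, GADD45A, TNFRSF10B, TNFRSF10C, RRM2B and PHLDA3 were not among them. The p53 full site was searched on both strands as a pair of p53 half-sites separated by 0 to 3 bases, with the C and the G of each core kept and at most 2 other mismatches. It was found in windows of 4 genes, MDM2, DDB2, AEN and FAS. By window, 5 of the 37 windows of the set held it (13.5%), against 0.971% of all 35116 windows of that length. The 2 MDM2 windows with a match overlap and share 1 site. A single exact p53 half-site, which also lies within some of the full sites, was found in 16.2% of the set's windows and in 6.63% of all windows. The set consists of known p53 targets, so its higher shares are a description and not separate evidence. The median share of G and C was 63% in the set's windows and 58.7% in all windows. The matched sites are given 5′ to 3′ in capitals.
MDM2, chr12:68808923-68808942, plus strand: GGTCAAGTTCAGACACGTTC
DDB2, chr11:47214979-47214999, plus strand: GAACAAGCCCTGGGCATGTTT
AEN, chr15:88621306-88621325, plus strand: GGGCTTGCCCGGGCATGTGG
FAS, chr10:88991309-88991328, plus strand: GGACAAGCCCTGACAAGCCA

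The DDB2 site had 0 mismatches and 1 base between its half-sites, and it overlapped another match with 1 mismatch that began at position -5 from the start. The other sites had 2 mismatches and 0 bases between half-sites. The MDM2 site began at position -94 from a start that lies downstream of the first MDM2 starts of the table. The FAS site began at position -122. It and the DDB2 site likewise belong to a start downstream of other starts of their genes, whose windows held no match. The 250 bases before each start follow, with the matched site in capitals, for MDM2, AEN and FAS. An exact half-site without a full site was found in windows of 3 genes, PLK2 (from position -132), SESN1 (-49) and FDXR (-11). The stretch of PLK2 is shown with its half-site in capitals. It was picked because PLK2 rose (below), and a link between the half-site and the rise was not tested. SESN1 did not pass and FDXR is not analysed here.
MDM2, chr12:68808767-68809016, plus strand: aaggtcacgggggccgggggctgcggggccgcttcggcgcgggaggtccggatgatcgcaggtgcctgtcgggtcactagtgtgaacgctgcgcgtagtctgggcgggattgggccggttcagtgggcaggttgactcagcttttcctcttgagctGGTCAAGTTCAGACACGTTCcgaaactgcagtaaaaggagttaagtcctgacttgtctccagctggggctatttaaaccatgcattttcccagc
AEN, chr15:88621090-88621339, plus strand: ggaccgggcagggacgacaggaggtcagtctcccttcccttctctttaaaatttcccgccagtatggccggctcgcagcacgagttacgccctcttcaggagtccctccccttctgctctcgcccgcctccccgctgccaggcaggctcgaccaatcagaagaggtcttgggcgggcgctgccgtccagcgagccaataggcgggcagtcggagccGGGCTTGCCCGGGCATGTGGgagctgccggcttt
FAS, chr10:88991181-88991430, plus strand: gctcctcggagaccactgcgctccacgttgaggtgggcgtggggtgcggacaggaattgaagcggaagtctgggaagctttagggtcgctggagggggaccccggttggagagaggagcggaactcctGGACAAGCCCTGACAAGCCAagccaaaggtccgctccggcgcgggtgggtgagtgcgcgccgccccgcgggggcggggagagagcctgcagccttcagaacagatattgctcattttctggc
PLK2, chr5:58460087-58460336, minus strand: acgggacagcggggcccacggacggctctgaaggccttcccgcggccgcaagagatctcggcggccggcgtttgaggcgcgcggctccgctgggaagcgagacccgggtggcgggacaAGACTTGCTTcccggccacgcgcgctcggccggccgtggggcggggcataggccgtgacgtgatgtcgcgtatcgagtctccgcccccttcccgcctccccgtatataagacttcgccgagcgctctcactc

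A match is a description of the letters and not evidence of binding in these cells. None of MDM2, DDB2, AEN and FAS passed the test described next. Windows of GDF15, SESN2 and SPATA18 held no match, which says only that these letters are not in these windows.

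Both siRNA arrays together were set against the control with limma, using Benjamini-Hochberg adjustment over all 12892 genes and a threshold of 0.05. Of the 25 tested p53 targets, 2 rose, TP53INP1 and PLK2, 0 fell and 23 did not pass, where 0.248% of all genes tested rose and 0.714% fell. Both calls were lost with no filter on dim genes (limma, adjusted p = 0.0927 for TP53INP1 and 0.0991 for PLK2), a setting in which the calls over all genes went from 32 risen and 92 fallen to 1 and 0. At an unadjusted p under 0.05 by limma, 8 of the 25 were higher and 0 lower, against 6.46% and 11.3% of all genes. At least 1.5-fold from the control with both siRNAs, a size rule without a test, were 3 targets, TP53INP1, PLK2 and GDF15, all higher. Over all genes 0.582% were that much higher with both siRNAs and 1.53% that much lower. TP53INP1 alone was at least 2-fold higher with both, as were 0.0853% of all genes, and 0 targets were 2-fold lower, against 0.101%. At a looser rule of 25% with both siRNAs, 5 targets were higher and 0 lower, GADD45A and SPATA18 being added, against 4.27% and 8.02% of all genes. Above the control with both siRNAs were 13 of the 25 (52.0%), below it with both were 8, and 4 lay on opposite sides. Among all genes tested, 36.4% were above with both and 41.7% below with both. The median difference of the targets was 0.09 on the log2 scale, against -0.02 over all genes tested, and was 0.10 with each siRNA taken alone. Without TP53INP1 and PLK2, a pair removed after their values were seen, the median was 0.06 and 11 of 23 stood above the control with both siRNAs. In RNA from whole cultures, a change in all cells and a larger change in some cannot be told apart. Both siRNA comparisons share the 1 control array, so an error of that array moves all of these counts.

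**Figure D1:**
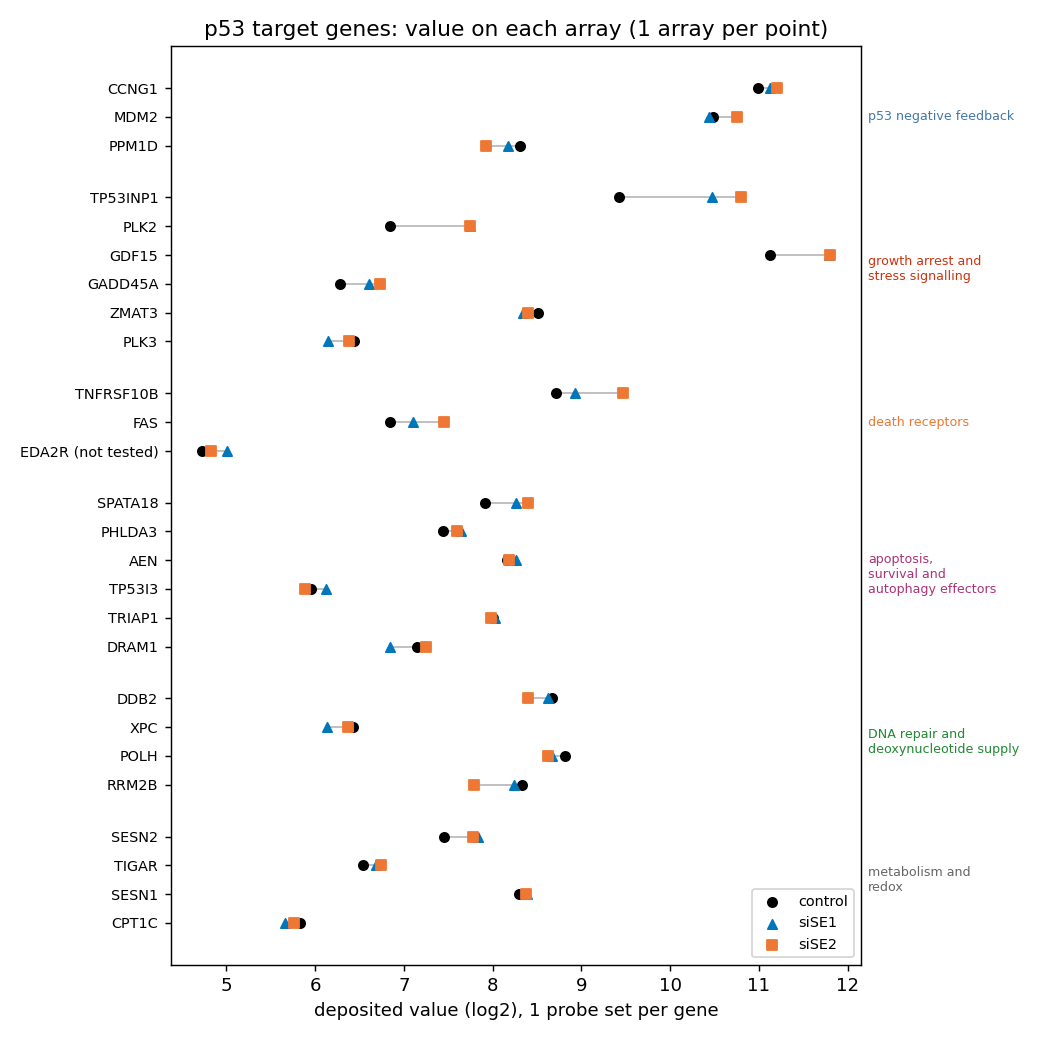
Deposited log2 value (horizontal axis) of the 26 measured p53 targets (rows, grouped by role) on the control array (circle), the siSE1 array (triangle) and the siSE2 array (square), 1 array per point. The control lies well to the left of both siRNA arrays for TP53INP1 (9.43 against 10.47 and 10.80), PLK2 and GDF15, while most other genes have 3 points close together; levels of different genes come from different probe sets and cannot be compared.

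The arrest and stress signalling genes held the largest differences of the set. TP53INP1, a nuclear protein that promotes p53 phosphorylation and autophagy, was 9.43 on the control, 10.47 on the siSE1 and 10.80 on the siSE2 array (log2). Both siRNA arrays were above the control, by 2.06-fold and 2.58-fold. The mean difference was 1.20 ± 0.17 (SE, n = 2 against 1), a 2.30-fold rise (limma, adjusted p = 0.0223). It exceeded the difference of 99.95% of the genes tested.

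PLK2, a stress-induced polo-like kinase that acts at the centrosome and in checkpoint signalling, was 6.84 on the control, 7.74 on the siSE1 and 7.75 on the siSE2 array. The siRNA arrays were nearly equal and both higher. The mean difference was 0.90 ± 0.14 (SE, n = 2 against 1), a 1.87-fold rise (limma, adjusted p = 0.0280). Its relative PLK3, another stress-responsive polo-like kinase, read 6.44, 6.15 and 6.38 in the same order. PLK3 was lower on both siRNA arrays, by 0.18 ± 0.16 as a mean, and did not pass (limma, adjusted p = 0.586). The difference between the PLK2 and PLK3 changes was not tested.

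GDF15, a secreted cytokine of the TGF-beta family released by stressed cells, was 11.12 on the control, 11.79 on the siSE1 and 11.80 on the siSE2 array. The siRNA arrays again stood together above the control, at 1.59-fold and 1.60-fold. The mean difference was 0.67 ± 0.14 and missed the threshold (limma, adjusted p = 0.0608). Its unadjusted 95% interval, 0.35 to 0.99, lay above 0. With an intensity trend in the variance prior it passed (limma, adjusted p = 0.0277), and over the alternatives in normalization, filter and probe set its adjusted p by limma ran from 0.0528 to 0.154.

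GADD45A, a stress sensor that binds PCNA and MAP kinase kinases, was 6.28 on the control, 6.60 on the siSE1 and 6.73 on the siSE2 array. Both siRNA arrays were higher, with a mean difference of 0.39 ± 0.15 that did not pass (limma, adjusted p = 0.206). ZMAT3, an RNA-binding zinc finger protein, went the other way within a narrow range, from 8.51 to 8.34 and 8.40 (difference -0.14 ± 0.14). Of the 6 tested genes of this role, 2 rose, 4 stood above the control with both siRNAs and 2 below with both. Over all genes tested, 0.248% rose, 36.4% stood above with both and 41.7% below with both. The median difference of the 6 genes was 0.53.

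**Figure D2:**
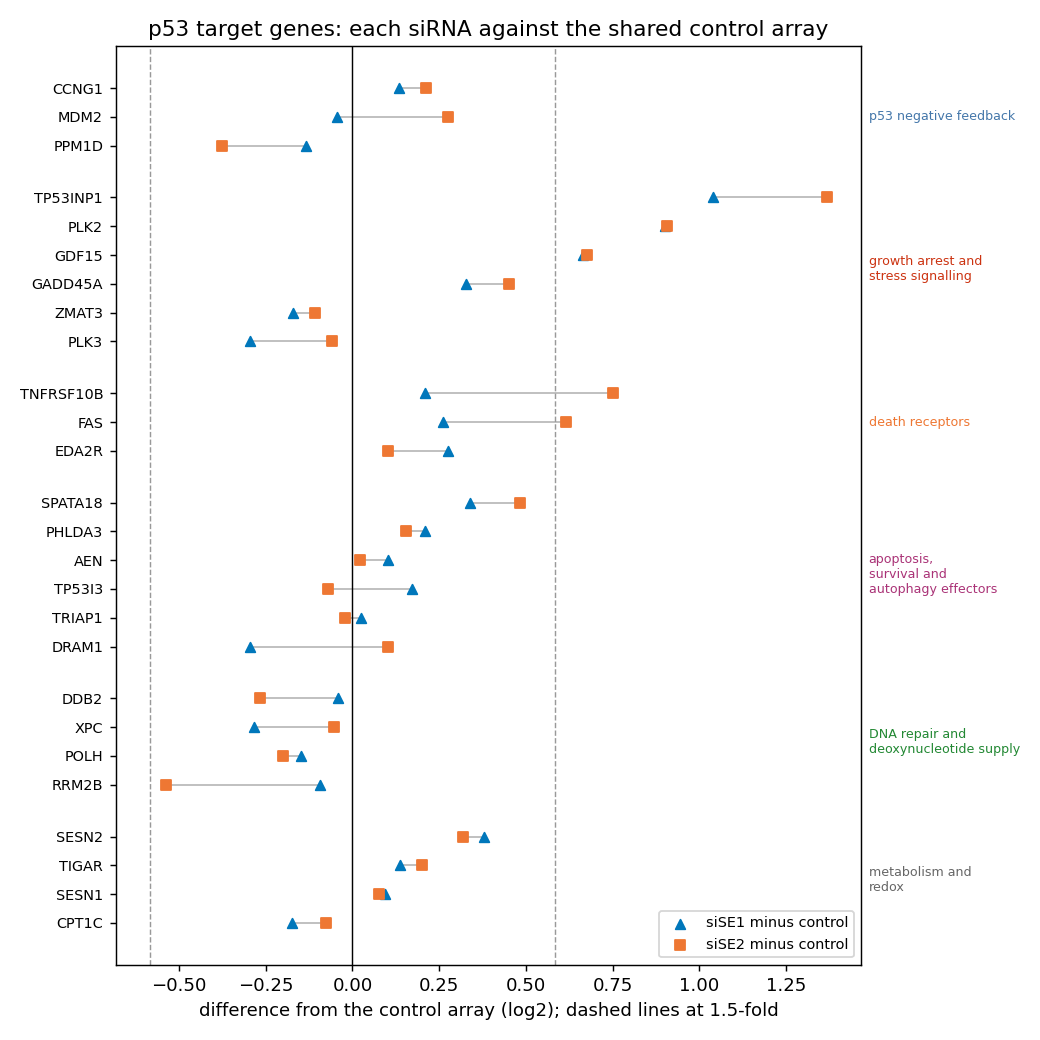
Difference from the control array (log2, horizontal axis) for siSE1 (triangle) and siSE2 (square), for the 26 measured p53 targets in rows grouped by role, with dashed lines at 1.5-fold; both differences use the same control array. TP53INP1, PLK2 and GDF15 have both points beyond the upper dashed line, FAS and TNFRSF10B only the siSE2 point, and no gene has a point beyond the lower one.

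The genes that feed back on p53 did not pass, in either direction. MDM2, the ubiquitin ligase that degrades p53, was 10.48 on the control, 10.44 on the siSE1 and 10.76 on the siSE2 array. The control lay between the siRNA arrays, and the mean difference was 0.12 ± 0.17 (limma, adjusted p = 0.759). The unadjusted 95% interval of that difference, -0.26 to 0.49, did not reach the size seen for TP53INP1 or PLK2. PPM1D, the phosphatase WIP1 that removes activating phosphates from p53 and its kinases, read 8.31, 8.17 and 7.93 in the order control, siSE1, siSE2, a difference of -0.26 ± 0.16. CCNG1, cyclin G1, which recruits a phosphatase to MDM2, read 10.99, 11.13 and 11.21, a difference of 0.17 ± 0.14. Among these 3 genes, 1 was above the control with both siRNAs, 1 below with both and 1 on opposite sides. The shares over all genes tested were 36.4% above with both and 41.7% below with both.

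The death receptor genes were higher on both siRNA arrays, as were 36.4% of all genes tested, by unequal amounts, and none passed. TNFRSF10B, which encodes the TRAIL receptor DR5, was 8.71 on the control, 8.92 on the siSE1 and 9.46 on the siSE2 array. The siSE2 array stood apart from the others. The mean difference was 0.48 ± 0.21 (limma, adjusted p = 0.269), with 1.16-fold for siSE1 and 1.68-fold for siSE2. FAS, the receptor of FAS ligand, read 6.84, 7.10 and 7.46 in the same order, a difference of 0.44 ± 0.17 (limma, adjusted p = 0.229), with 1.20-fold for siSE1 and 1.53-fold for siSE2. EDA2R, the ectodysplasin A2 receptor, was dim, at 4.73, 5.01 and 4.83 against a filter level of 5.12, and was not tested. A probe set that names both TNFRSF10C, a TRAIL decoy receptor, and another transcript was not part of the comparison; it read 4.44, 4.54 and 4.34. The family members TNFRSF10A and TNFRSF10D, both TRAIL receptors, differed by 0.04 ± 0.14 and 0.07 ± 0.14. TRAIL receptor genes are similar in sequence, so signal of single members on these arrays is uncertain.

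Among the effectors of apoptosis, survival and autophagy, 3 of 6 were above the control with both siRNAs, 0 below with both, and none passed. Of all genes tested, 36.4% were above with both and 41.7% below with both. SPATA18, which promotes removal of damaged mitochondrial protein, was 7.92 on the control, 8.26 on the siSE1 and 8.40 on the siSE2 array. Both siRNA arrays were higher, with a difference of 0.41 ± 0.15 (limma, adjusted p = 0.191). PHLDA3, an inhibitor of AKT at the membrane, was 7.44, 7.65 and 7.59 in the order control, siSE1, siSE2, a difference of 0.18 ± 0.14. AEN, a nuclease that promotes apoptosis and carries the site shown above, was 8.16, 8.27 and 8.19, a difference of 0.06 ± 0.14. The other 3 had the control between the siRNA arrays. TP53I3, a quinone oxidoreductase, was 5.95, 6.13 and 5.89 (difference 0.05 ± 0.16). DRAM1, a lysosomal regulator of autophagy, was 7.14, 6.85 and 7.25 (difference -0.10 ± 0.18). TRIAP1, a small survival protein, had the smallest difference of the set, and its value of 0.002 ± 0.14 changed sign when array medians were made equal (-0.04).

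The 4 genes of DNA repair and deoxynucleotide supply were all below the control with both siRNAs, as were 41.7% of all genes tested, and none passed. RRM2B, the p53-induced small subunit of ribonucleotide reductase, was 8.33 on the control, 8.24 on the siSE1 and 7.80 on the siSE2 array. The siSE2 array was the low one, and the mean difference was -0.32 ± 0.19 (limma, adjusted p = 0.415). DDB2, which recognises ultraviolet damage and had the site with 0 mismatches, was 8.67, 8.62 and 8.40 in that order, lower mainly with siSE2 (difference -0.16 ± 0.15). XPC, a damage sensor of nucleotide excision repair, was 6.42, 6.14 and 6.37, lower mainly with siSE1 (difference -0.17 ± 0.16). POLH, the translesion polymerase eta, was 8.82, 8.67 and 8.62 (difference -0.17 ± 0.14), with the siRNA arrays close together. The median difference of the 4 genes was -0.17. RRM2 and RRM1, which encode other subunits of ribonucleotide reductase, differed by -0.35 ± 0.14 and -0.43 ± 0.15 and did not pass either (limma, adjusted p = 0.249 and 0.189).

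Of the 4 tested metabolic and redox genes, 3 were above the control with both siRNAs, 1 below with both, and none passed. For all genes tested the shares were 36.4% above with both and 41.7% below with both. SESN2, a leucine-sensing inhibitor of mTORC1, was 7.46 on the control, 7.83 on the siSE1 and 7.77 on the siSE2 array. Both siRNA arrays were higher, with a difference of 0.35 ± 0.14 (limma, adjusted p = 0.245). SESN1, another sestrin, differed by 0.09 ± 0.14, from 8.30 to 8.39 and 8.38. SESN3, a sestrin outside the set that was chosen after its values were seen, read 8.80, 8.69 and 9.68, higher with siSE2 alone. TIGAR, which lowers glycolytic flux, was 6.54 on the control and 6.68 and 6.75 with the siRNAs (difference 0.17 ± 0.14). CPT1C, a brain-enriched carnitine palmitoyltransferase, was 5.83, 5.66 and 5.76, the lone gene of this role below the control (difference -0.13 ± 0.14).

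**Figure D3:**
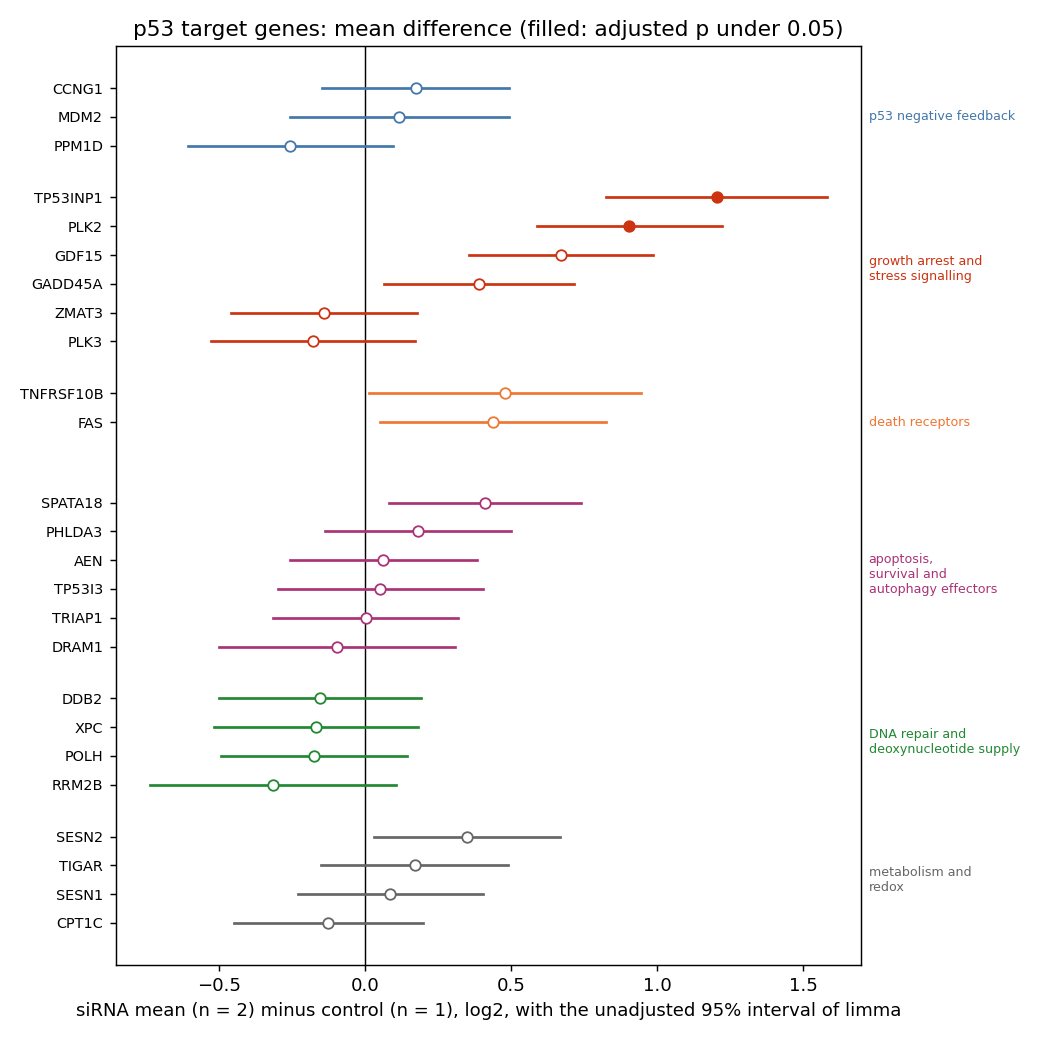
Mean of the 2 siRNA arrays minus the control array (log2, horizontal axis) with limma's unadjusted 95% interval for the 25 tested p53 targets, grouped by role; filled points have an adjusted p under 0.05. TP53INP1 and PLK2 are the filled points, and the intervals of GDF15, GADD45A, FAS, TNFRSF10B, SPATA18 and SESN2 also lie above 0 while no interval lies wholly below it.

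At the median, the siRNAs differed from each other on these genes about as much as on all genes tested. The median distance between the siSE1 and siSE2 values was 0.12 on the log2 scale for the 25 targets and 0.12 for all genes tested. None of the 25 was 1.5-fold apart between the siRNAs, a distance that 1.16% of all genes reached. TNFRSF10B was farthest apart (0.54), followed by RRM2B (0.44), DRAM1 (0.40), FAS (0.35) and TP53INP1 (0.33). In that order, these distances exceeded those of 98.2%, 96.1%, 94.5%, 92.0% and 90.2% of all genes tested. PLK2 and GDF15 were closest, at 0.0057 and 0.011, exceeding 2.58% and 4.93%. With siSE2 alone 5 targets were at least 1.5-fold higher, FAS and TNFRSF10B being added, against 1.2% of all genes, and 0 lower, against 2.82%. With siSE1 alone 3 were higher and 0 lower, against 1.45% and 4.27% of all genes. With 1 array per siRNA these distances have no test, and siSE1 and siSE2 share a name in one label field.

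Other genes of the pathway gave few calls. CDKN1A, the cell cycle inhibitor p21 and the best known p53 target, was 8.41 on the control, 9.71 on the siSE1 and 9.85 on the siSE2 array and rose (difference 1.37 ± 0.15; limma, adjusted p = 0.0147). It alone passed among 40 tested further p53 targets. Of these 40, 1 rose and 0 fell, with a median of 0.07. Above the control with both siRNAs were 22 (55%) and below with both 12, against 36.4% and 41.7% of all genes. At an unadjusted p under 0.05 by limma, 3 of the 40 were higher (7.5%) and 4 lower (10%), near the 6.46% and 11.3% of all genes. Ranked by the smaller of the changes with the siRNAs, CDKN1A was followed by CYFIP2 (-0.64 ± 0.15), which regulates actin assembly, then DUSP14 (-0.58 ± 0.15), a phosphatase of MAP kinase signalling, and CERS5 (-0.47 ± 0.14), a ceramide synthase, all lower on both siRNA arrays without passing.

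None of 32 tested regulators of p53 passed by limma, and at an unadjusted p under 0.05 6 of them were lower (18.8%) and 0 higher, against 11.3% and 6.46% of all genes. The gene for p53 itself is not analysed here. Below the control with both siRNAs were 18 regulators and above it 7 (21.9%), against 41.7% and 36.4% of all genes, and their median was -0.07. RCHY1, the ubiquitin ligase PIRH2, differed by -0.55 ± 0.14 (limma, adjusted p = 0.0938), MDC1, a scaffold at DNA breaks, by -0.48 ± 0.15, and CHEK2, a checkpoint kinase that phosphorylates p53, by -0.41 ± 0.15. H2AX, the histone variant marked at breaks, differed by -0.37 ± 0.14.

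Paralogs of the p53 targets, most of them not known as p53 targets, and genes induced by ATF4 and CHOP, stress factors that also act on GDF15, SESN2 and TNFRSF10B, were set beside the targets. Of 27 tested paralogs none passed by limma, and their median was 0.04. At an unadjusted p under 0.05 by limma, 5 were higher (18.5%) and 5 lower (18.5%), against 6.46% and 11.3% of all genes. PHLDA1 differed by -0.47 ± 0.14, PPM1B by -0.41 ± 0.14, ISG20 by 0.42 ± 0.14 and GADD45B by 0.37 ± 0.14. Of 18 tested ATF4 and CHOP genes none passed by limma, and their median was -0.01. By the same unadjusted limma threshold 4 were higher (22.2%) and 3 lower (16.7%), both above the shares of all genes. MTHFD2, a mitochondrial folate enzyme, differed by -0.57 ± 0.14, SLC3A2, an amino acid transporter chain, by -0.46 ± 0.14, DDIT4, an inhibitor of mTORC1, by 0.66 ± 0.20, and ASNS, asparagine synthetase, by 0.51 ± 0.15. ATF4 and DDIT3, which encode these factors, differed by -0.01 ± 0.14 and -0.07 ± 0.14. The part of either pathway in the values of the p53 targets was not tested.

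**Figure D4:**
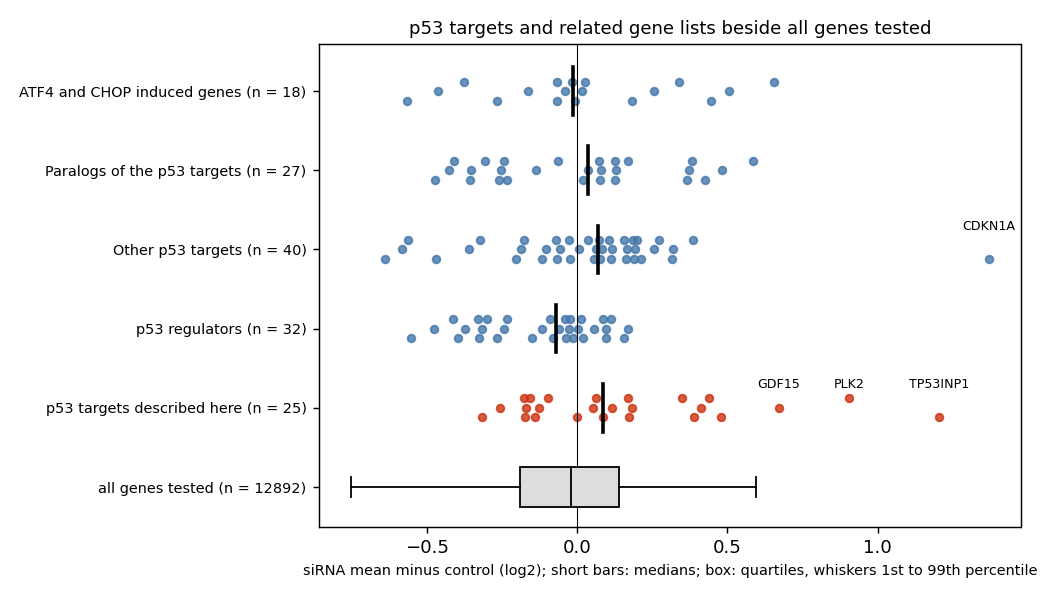
Mean of the 2 siRNA arrays minus the control array (log2, horizontal axis) for the tested genes of each list, 1 point per gene with the list's median as a short bar, above a box of all 12892 genes tested (quartiles, whiskers from the 1st to the 99th percentile). TP53INP1, PLK2 and GDF15 lie to the right of the upper whisker, as do CDKN1A among the further p53 targets and DDIT4 (0.66) among the ATF4 and CHOP genes, and the medians of the lists run from -0.07 to 0.09.

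The arrays as a whole were alike, with medians of 5.80 to 5.84 and pairwise Pearson correlations of 0.989 to 0.993 over 33297 probe sets. The prostate luminal markers measured, 9 of 13 listed and KLK3, KLK2, HOXB13 and FOXA1 among them, read from 6.39 to 11.8, and the androgen receptor gene is not analysed here. Of these 9, none passed over all genes. At an unadjusted p under 0.05 by limma, 3 were higher (33.3%) and 2 lower (22.2%), against 6.46% and 11.3% of all genes. ACP3 (0.76 ± 0.15), KRT8 (0.43 ± 0.14) and KRT18 (0.42 ± 0.15) were the higher ones. SLC45A3 (-0.46 ± 0.15), a partner in the targeted chimeric transcript, and KLK3 (-0.39 ± 0.14) were the lower ones. Markers of other cells read from 4.85 to 6.20 (4 basal), 3.13 to 6.09 (6 blood cell) and 2.41 to 8.11 (7 stromal); levels of different probe sets cannot be ranked. In the order control, siSE1, siSE2, the log2 values summed to 88.5, 88.4 and 88.8 for luminal, 21.4, 22.1 and 22.7 for basal, 24.1, 26.1 and 25.4 for blood cell and 36.6, 37.1 and 36.5 for stromal markers. Among the blood cell markers LYZ, lysozyme, was 4.41, 6.09 and 5.11, CD14, a monocyte receptor, 5.03, 5.22 and 5.38, and PTPRC, a leukocyte surface phosphatase, 3.17, 3.22 and 3.18. The part of these markers in the values of the p53 targets was not tested. The calls on the p53 targets rest on 1 residual degree of freedom per gene, combined with 8.46 prior degrees of freedom estimated over all genes tested. Each SE and p-value therefore reflects mostly the spread shared by all genes. PLK2, for example, had siRNA arrays 0.0057 apart and an SE of 0.14. The fit takes the spread of the single control from the siRNA arrays.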

How the data were processed

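The authors deposited 1 table of log2 values, 33297 probe sets by 3 arrays, which the submitters' processing notes tie to Affymetrix Expression Console. The log2 scale was read from the range of the values (1.43 to 13.9); no source used here gives the algorithm, background correction or build. By the platform annotation, 19460 probe sets carried 1 gene name, 1754 several and 12083 none; symbols were updated by gene identifier for 19429. Probe sets of 1 gene were averaged, and of 18417 genes the dimmest 30%, with an array mean under 5.12, were dropped (5525 genes). The remaining 12892 genes were fitted with limma 3.58.1 in R 4.3.3 (lmFit, eBayes, Benjamini-Hochberg, two-sided), siRNA arrays (n = 2) against control (n = 1), with 1 residual degree of freedom; SE is the moderated standard error. The fit was tested on simulated data with independent noise, of equal size for a gene on the 3 arrays. Errors common to many genes and effects that differ between the siRNAs were not simulated. Every measured member was described; from each other list up to 4 genes were named, those passing first and then by the smaller of their changes. TNFRSF10A, TNFRSF10D, RRM1, RRM2, ATF4, DDIT3 and the markers named lie outside this rule and were chosen after their values were seen. The members and lists were chosen with earlier results of these data known. Alternatives covered normalization, filter, probe set choice, variance prior, the size rule and leaving out each siRNA array. The number of arrays limits the precision.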

Additional observations from a re-analysis of the deposited data

How the results depend on the processing

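Over quantile normalization, equal array medians, cyclic loess, a stricter filter (50th percentile), use of the brightest probe set and a robust prior, 2 p53 targets passed, as in the main setting; 3 passed with an intensity trend in the prior. With no filter 0 passed by limma, with 7 higher and 0 lower at an unadjusted p under 0.05. That setting tests 18417 genes, dim ones included. At least 1.5-fold with both siRNAs were 3 targets under every normalization, filter and probe set choice; 5 were past a 25% change and 1 past 2-fold. Leaving out 1 siRNA array gave 3 to 5, the 5 without siSE1, and 15 targets above the control either way. Targets above the control with both siRNAs numbered 12 to 14 elsewhere. The median difference, 0.09, was 0.13 with cyclic loess, 0.046 with equal array medians, 0.14 with the stricter filter, 0.10 with no filter and 0.12 with quantile normalization, and 0.10 without either siRNA array. The median over all genes, -0.02 in the main setting, was -0.01, -0.06, -0.05, 0.01 and -0.004 in the first 5 of these. Equal array medians shift all genes alike, the stricter filter and no filter change which genes are tested, and the cause of the other shifts was not tested. Of 147 single-gene values under other normalizations, filters and probe set choice, 144 kept direction and side of the threshold. TP53INP1 and PLK2 lost their call with no filter, and TRIAP1, near 0, turned to -0.038 with equal array medians by the shift common to all genes. With the trend prior GDF15 passed. MDM2, TP53I3, TRIAP1 and DRAM1, none of them called, have opposite signs with the 2 siRNAs, so leaving out an array turns each. No paired analysis was possible because there was only 1 control array. The number of arrays limits the precision.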
